A study of Mus musculus with 5 samples.

Results

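Glutathione, glucuronosyl and sulfo transferases are the conjugating enzymes of the liver, and their genes were compared between livers of Fra-1hep mice and livers of control mice. The genes were taken by name: every array probe whose accession mapped in the RefSeq gene table to a mouse symbol starting with Gsta, Gstk, Gstm, Gsto, Gstp, Gstt, Gstz, Mgst, Ugt1, Ugt2, Ugt3 or Sult. This gave 56 genes with 80 probes, out of 19748 named genes and 55681 distinct probes on the array. They were 25 glutathione transferase (GST) genes, 13 UDP-glucuronosyltransferase (UGT) genes and 18 sulfotransferase (SULT) genes. A further 14 genes that the same name rule matched in the RefSeq table had no probe under their accession and were not analysed here. Without a probe were Gstm2-ps1, Gstp-ps, Sult2a-ps2, Sult2a3, Sult2a5, Sult2a7, Ugt1a1, Ugt1a2, Ugt1a5, Ugt1a6b, Ugt1a7c, Ugt1a8, Ugt1a9 and Ugt2a2.

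Fra-1hep mice overexpress Fra-1, a FOS-family subunit of the transcription factor AP-1, in hepatocytes. The sources used here give neither the promoter that drives the transgene nor the sex of the mice. Liver RNA of 4 Fra-1hep mice (C57BL/6J) was labelled with Cy5, 1 mouse per array, and set against a Cy3-labelled pool of liver RNA from 5 wild-type C57BL/6J control mice. On the remaining array the dyes were swapped, so that pooled Fra-1hep RNA carried Cy3 and the control pool Cy5. The sources used here do not say which mice the Fra-1hep pool holds. The array's probe for Fosl1, the gene of Fra-1, was not above background for Fra-1hep on any array (0 of 5) and for control on 1 array. Its ratios were -0.37, -0.23, 0.11 and 0.12 in the mice and -0.09 in the Fra-1hep pool, so it could not be used to check the labels, and whether the transgene's RNA holds its target is not known here. The age of the mice was 26 to 28 weeks, and both groups were on a high-fat diet (45% of energy as fat) that began at 4 weeks.

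Glutathione transferases join glutathione to electrophilic compounds, UDP-glucuronosyltransferases add glucuronic acid from UDP-glucuronate, and cytosolic sulfotransferases add sulfate from the donor PAPS. The products are more soluble in water and leave the hepatocyte through export pumps into bile or blood. Many of these genes are known targets of transcription factors that sense oxidants and foreign compounds, such as Nrf2, the pregnane X receptor and the aryl hydrocarbon receptor, and AP-1 elements have been described in the promoters of pi-class glutathione transferases.

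Values below are log2 ratios of Fra-1hep over control, so a positive value means a higher level in Fra-1hep livers. The ratio on each array is given for mice 1 to 4 and then for the swapped pool. The change of a gene is the genotype coefficient of a limma fit over all 5 arrays with a dye term, given with its standard error (SE). In this fit the swapped pool weighs as much as the 4 mice together. Its array adds nothing to the SE, which joins the gene's spread over the 4 mice with the typical spread of all features. A gene was called where its p-value, adjusted by Benjamini-Hochberg over 21494 features, was under 0.05. Because there was 1 control pool, no test includes the spread among control mice.

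Of the 56 genes, 44 were above background often enough to be tested, and 12 were not. The untested genes were Gstt4, Ugt2a1, Sult1c1, Sult2a1, Sult2a2, Sult2a4, Sult2a6, Sult2b1, Sult3a1, Sult3a2, Sult6b1 and Sult6b2. Among these, 8 were not well above background on any array in either channel. The filter asked for a signal on at least 3 arrays in either channel, and 41 of the tested genes had one in both channels on all 5 arrays. The exceptions were Sult1e1 (well above background on 2 arrays for Fra-1hep and on 5 for control), Sult4a1 (5 for Fra-1hep, 2 for control) and Gsto2 (3 for Fra-1hep, 1 for control). These 3 genes passed the filter through their brighter group, which favours a difference between groups, so the counts below are not counts over all 56 genes.

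Of the 44 tested genes, 26 were called: 9 were higher and 17 were lower in Fra-1hep livers, which is 59.1% of them. Over all 13521 named genes tested, 30.5% were called, with 12.0% higher and 18.5% lower, and over all features 26.6% were called. Of the 26 called genes, 22 had the same sign on all 5 arrays, 16 changed by at least 0.5 on the log2 scale (5 higher, 11 lower), and 5 changed at least 2-fold. Among all features, 7.52% were called with a change of at least 0.5. The median size of the change, whatever its sign, was 0.34 for the tested transferases and 0.13 for all features. These sets were not matched for signal level, and for dim probes the size of a ratio depends on the background correction.

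Tested GST genes were called in both directions, and most of the tested UGT genes were called lower. Among GST genes, 6 were higher, 4 were lower and 14 were not called, and their median coefficient was -0.09. Among UGT genes, 1 was higher, 9 were lower and 2 were not called, with a median of -0.34. Among SULT genes, 2 were higher, 4 were lower and 2 were not called, with a median of -0.36; of the 6 SULT genes whose signal was well above background on every array for both Fra-1hep and control, 1 was higher and 3 were lower. The median over all features was -0.00. The class medians on the arrays of mice 1 to 4 and the swapped pool were -0.08, 0.03, 0.07, -0.19 and -0.07 for GST genes, -0.44, -0.31, -0.48, -0.39 and -0.26 for UGT genes, and -0.49, -0.40, -0.22, -0.31 and -0.22 for SULT genes. The UGT and SULT medians lay below the GST median on each of the 5 arrays, while the UGT and SULT medians overlapped. The difference between classes was not tested. The count of lower GST genes rested on the swapped array: without it, 7 were lower and 7 higher. The array of mouse 1 lay on another slide than the other 4 arrays. Within the slide of those 4 arrays the counts of higher and lower genes were the same in each class, with medians of -0.07 for GST, -0.35 for UGT and -0.36 for SULT genes.

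**Figure D1:**
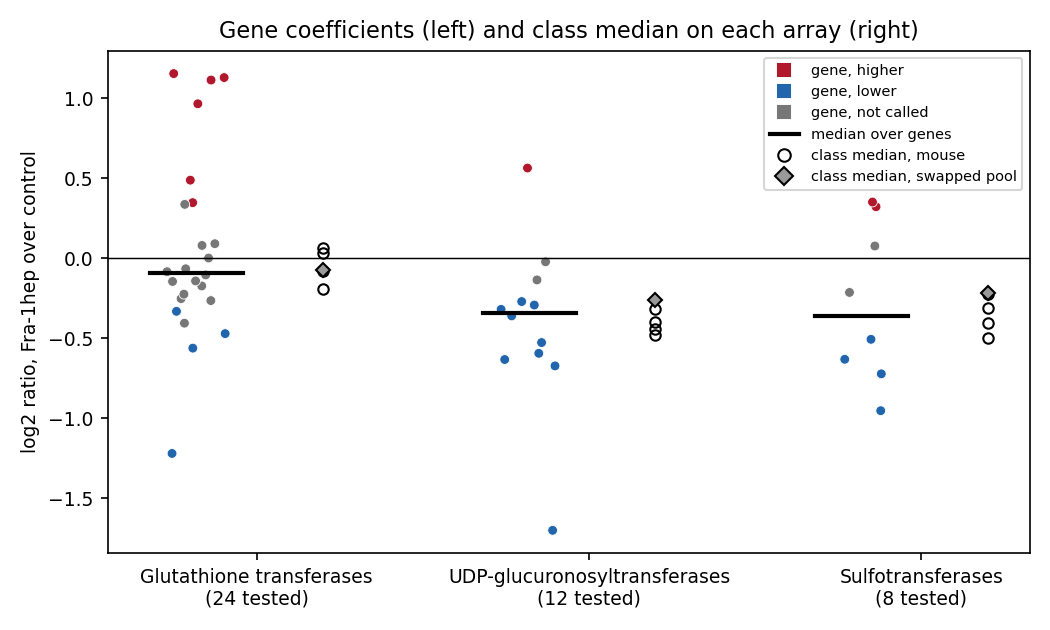
Log2 ratio of Fra-1hep over control (vertical axis) for the tested genes of each class, 1 point per gene coloured by its call, with the median as a bar; open circles and the diamond give the class median on each mouse's array and on the swapped pool's array. The GST genes spread from -1.22 to 1.16 around a median of -0.09, and the UGT and SULT medians lie below 0 on every array.

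The liver identity of the RNA and its cell mix were checked with marker lists. All 6 hepatocyte markers tested (Alb, Apoa1, Ttr, Tat, Cyp2e1 and Cps1) were well above background on every array, with a list median of 0.07. On single arrays this median lay between 0.28 and 0.33 for the mice but at -0.32 for the swapped pool. Tat was called by limma, at -0.58 ± 0.18 (adjusted p = 0.0488). Its mouse ratios lay between -0.75 and 0.22, and the call was lost in 10 alternatives, among them that without the swapped array (-0.33, adjusted p = 0.145). Without the swapped array Alb (0.58), Ttr (0.88) and Cyp2e1 (0.85) were called higher. Of 6 stellate cell markers 5 were lower (83.3% called, list median -1.29, from -1.47 to -0.91 over the arrays). Of 6 neutrophil markers 5 were higher (83.3%, median 2.56, from 1.88 to 3.52). Of 6 endothelial markers 3 were lower (50%, median -0.45, from -0.62 to -0.05). Of 5 macrophage markers 2 were lower (40%, median -0.78, from -1.14 to -0.11). Over all named genes 30.5% were called. Among markers not called were the endothelial Kdr (0.07) and the macrophage markers Clec4f (0.07) and Marco (-0.78, from -1.71 to 0.51 in the mice). Calls of the endothelial markers Cdh5 and Clec4g and of the stellate marker Lrat were lost in at least 1 alternative. Every tested marker was well above background for control on all 5 arrays. Of 5 bile duct markers 0 were called by limma (median 0.10, adjusted p from 0.126 to 0.968), and 0 had an unadjusted p under 0.05. In bulk liver RNA, fewer cells of a type and less RNA per cell cannot be told apart. The part of the changed cell mix in the transferase values was not tested.

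Glutathione transferases of the pi class had the largest rises in single mice. Gstp1 and Gstp2 encode pi-class enzymes of nearly the same sequence, which conjugate electrophiles and can bind and inhibit the kinase JNK. Gstp1 had ratios of 1.76, 1.23, 0.63 and 1.94 in mice 1 to 4, with 0.84 in the swapped pool, and rose by 1.12 ± 0.22 (adjusted p = 0.0121). Gstp2 had ratios of 2.04, 1.69, 0.89 and 2.32 in mice 1 to 4, with 0.53 in the swapped pool, and rose by 1.13 ± 0.23 (adjusted p = 0.0138). Both were above 0 on all 5 arrays, highest in mouse 4 and lowest among the mice in mouse 3. The other probe of each gene gave like values, 1.25 for Gstp1 and 1.17 for Gstp2, but probes for genes this similar may read each other's RNA. The call of Gstp2 was lost when the spread of 5 pooled control mice was added to its SE (adjusted p = 0.0509), and without the swapped array its ratio was 1.74 (adjusted p = 0.00121). Gstp3, the remaining pi-class gene, was at -0.22 ± 0.09 and was not called (adjusted p = 0.0994).

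The promoters of Gstp1 and Gstp2 are shown because the probes of both genes were called higher, although these may read each other's RNA. Both promoters also hold an AP-1 element, the sequence that Fra-1 containing dimers bind. Gstm5, the tested transferase with the highest coefficient, holds one too. The sequences are the 250 bases before the start site from RefSeq (GRCm38.p6), 5′ to 3′ on the strand of the gene: chr19:4037913-4038162 (minus strand) for Gstp1, chr19:4042222-4042471 (minus strand) for Gstp2 and chr3:107895604-107895853 (plus strand) for Gstm5. Capitals mark the match to TGANTCA, where N is any base.
Gstp1: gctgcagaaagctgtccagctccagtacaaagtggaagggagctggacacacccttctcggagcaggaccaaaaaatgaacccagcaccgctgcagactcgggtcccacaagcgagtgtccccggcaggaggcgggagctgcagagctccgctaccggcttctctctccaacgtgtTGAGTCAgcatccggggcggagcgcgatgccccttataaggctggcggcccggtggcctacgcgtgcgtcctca
Gstp2: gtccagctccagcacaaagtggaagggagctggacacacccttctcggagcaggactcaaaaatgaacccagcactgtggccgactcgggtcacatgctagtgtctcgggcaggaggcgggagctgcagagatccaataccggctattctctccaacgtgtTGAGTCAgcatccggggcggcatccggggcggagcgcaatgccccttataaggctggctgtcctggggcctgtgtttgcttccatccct
Gstm5: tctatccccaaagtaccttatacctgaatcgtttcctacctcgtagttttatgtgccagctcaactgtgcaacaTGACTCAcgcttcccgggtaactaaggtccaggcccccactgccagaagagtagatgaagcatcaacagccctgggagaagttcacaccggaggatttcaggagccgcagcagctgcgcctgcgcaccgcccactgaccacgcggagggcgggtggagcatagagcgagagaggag

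The match in Gstp1 begins 74 bases before the start site, that in Gstp2 89 bases before it and that in Gstm5 176 bases before it. The aligned Gstp1 and Gstp2 promoters were 78.5% identical, against 49% for Gstp1 and Gstm5, so the Gstp matches are not independent of each other. These letters were searched for on both strands of windows from 250 bases before to 50 bases after the start site, which were at hand for 50 of the 56 genes. TGANTCA was found in 13 of 62 windows of transferase genes (21%), from 13 genes, and in 7.81% of all 32851 windows. By call, it was in 4 of 8 genes that were higher, 5 of 17 that were lower, 2 of 15 that were not called and 2 of 10 that were not tested. By class, 4 of 23 GST genes, 5 of 12 UGT genes and 4 of 15 SULT genes held it. The middle base N was C or G in Gstm5, Gstp1, Gstp2 and Sult1b1 (higher), Ugt2b37 (lower), Mgst2 (not called), and Sult1c1 and Sult2b1 (not tested). It was A or T in Sult2a8, Ugt1a6a, Ugt2b35 and Ugt2b38 (lower) and in Ugt2b1 (not called). Whether matches with A or T act as AP-1 elements was not tested. This split by middle base was not part of the planned search. Its shares of all windows were not counted, and its relation to the calls was not tested. The core of the antioxidant response element, TGACNNNGC, which Nrf2 binds, was in 4 windows (6.45%, against 12.4% of all windows): those of Gsta3, Gstm5, Gstm7 and Mgst1. The aryl hydrocarbon receptor element TNGCGTG was in 2 windows (3.23%, against 5.07%), those of Gsta2 and Sult1d1. Matches to different motifs overlapped in 0 of these windows. A match describes the sequence and shows no binding.

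The mu class of glutathione transferases divided along the chromosome. Its 7 genes lie side by side in the order Gstm5, Gstm7, Gstm6, Gstm3, Gstm2, Gstm1 and Gstm4. The 3 genes at the Gstm5 end were higher in Fra-1hep livers, and the 4 genes at the other end all had coefficients below 0, of which 2 were called. Gstm5 had ratios of 0.84, 1.08, 1.38 and 1.18 in the mice and 1.19 on the swapped array, and rose by 1.16 ± 0.10 (adjusted p = 0.000417). Gstm7 had ratios of 1.00, 0.88, 0.93 and 0.93 in the mice and 1.00 on the swapped array, and rose by 0.97 ± 0.05 (adjusted p = 7.68e-05). The 5 arrays gave almost the same value for Gstm7, with an SD of 0.05 over the mice, and its other probe gave 0.70. Gstm6 was between 0.46 and 0.61 in the mice and at 0.48 in the swapped pool, and rose by 0.49 ± 0.06 (adjusted p = 0.00171); its 3 probes were all called higher.

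Gstm1, the main mu-class gene of mouse liver, had ratios of -0.38, -0.54, -0.15 and -0.46 in the mice and -0.74 on the swapped array. It fell by 0.56 ± 0.08 on the log2 scale (adjusted p = 0.00366) and was below 0 on all 5 arrays. Gstm3 had ratios of -0.35, -0.36, 0.02 and -0.42 in the mice and -0.38 on the swapped array, so mouse 3 stood apart. Its coefficient was -0.33 ± 0.09 (adjusted p = 0.034), and the call was lost without mouse 1 (adjusted p = 0.0564), without mouse 2 (0.0527) or without mouse 4 (0.0689). Gstm2 was at -0.14 ± 0.10 and Gstm4 at -0.26 ± 0.09, and neither was called. Gstm4 was called lower over the mice alone (-0.47, adjusted p = 0.0037) and without mouse 3 (-0.31, adjusted p = 0.0289), and its dimmer probe was called at -0.40. Mu-class genes share much of their sequence, so a probe may read a neighbour's RNA as well.

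**Figure D2:**
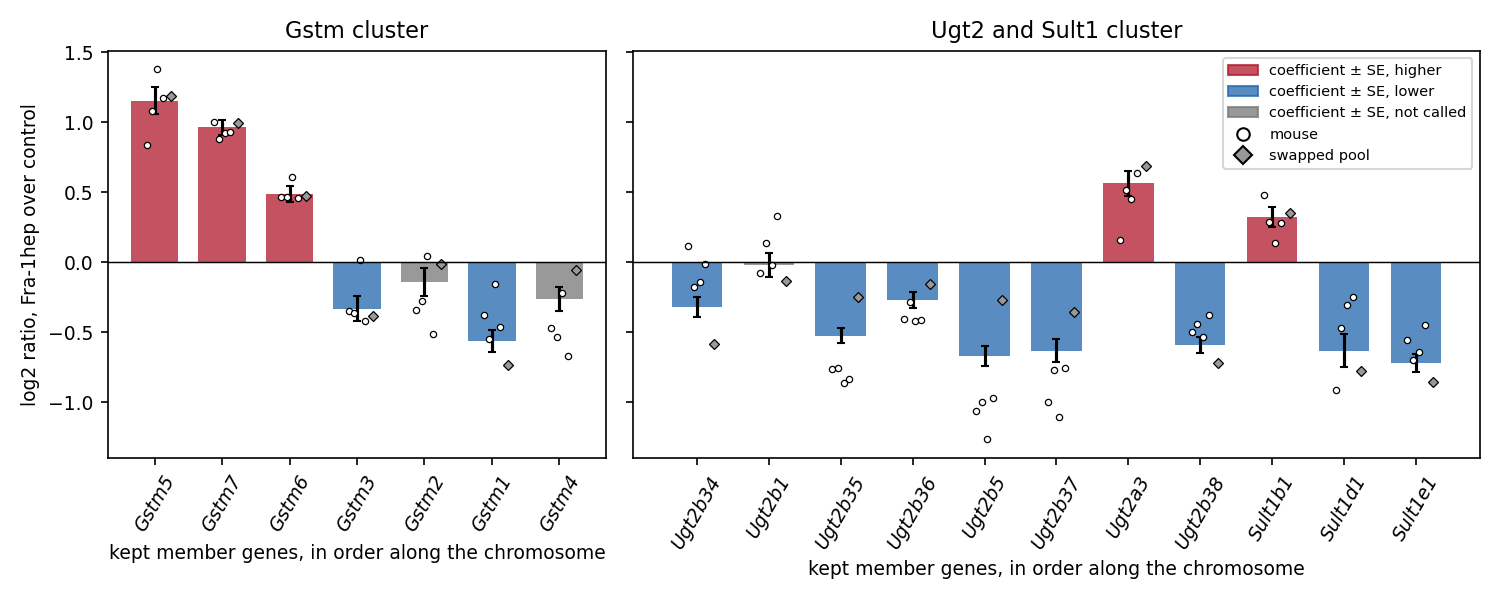
Log2 ratio of Fra-1hep over control (vertical axis) for tested genes of the Gstm cluster (left) and of the Ugt2 and Sult1 cluster (right), in their order along the chromosome; bars are coefficients with their SE, circles the 4 mice and diamonds the swapped pool. Gstm5, Gstm7 and Gstm6 are above 0 and their 4 neighbours below it, while Ugt2a3 and Sult1b1 are the only called genes above 0 in the right panel.

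In the alpha class, 1 of 4 genes was called. Gsta1 had ratios of -0.64, -1.61, -1.43 and -1.62 in the mice and -1.11 on the swapped array, all below 0, with the smallest change in mouse 1. It fell by 1.22 ± 0.18 on the log2 scale (adjusted p = 0.00388), a 2.33-fold lower level in Fra-1hep livers. Gsta2, the close relative of Gsta1, was at -0.25 ± 0.12 and was not called (adjusted p = 0.163), but it was called lower without mouse 1 (-0.31, adjusted p = 0.047) and over the mice alone (-0.36, adjusted p = 0.037). Gsta4, whose enzyme clears the lipid peroxidation product hydroxynonenal, was at -0.17 ± 0.07 and was not called (adjusted p = 0.101).

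Gsta3 differed in sign between the dye orientations. Its enzyme protects mouse liver against aflatoxin. At its brightest probe the ratios were 0.81, 1.23, 1.10 and 0.84 in the mice but -0.81 in the swapped pool. There was no overlap between the orientations. The coefficient at this probe was 0.09 ± 0.09 (adjusted p = 0.488) and its dye effect 0.90. Over the mice alone the ratio at this probe was 1.00 (adjusted p = 0.000242). The other Gsta3 probe read 0.19, 0.39, 0.59 and 0.47 for mice 1 to 4 and -0.16 for the pool. That probe had a coefficient of 0.13 and was not called. The sign differed between the orientations there too, but the gap was smaller. With 1 swapped array, a dye effect and a difference of the Fra-1hep pool from the mice cannot be told apart. A dye effect of at least 0.4 in size was seen in 4 tested transferases, Gsta3, Gstp2, Mgst1 and Ugt2b5, and 3 of these were the 3 genes with a mean level of at least 16 on the log2 intensity scale. The bright hepatocyte markers Alb and Ttr differed in sign between the orientations too. Alb was between 0.40 and 0.68 in the mice and at -0.31 in the swapped pool. Ttr was between 0.79 and 0.94 in the mice and at -0.58 in the swapped pool.

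The other glutathione transferases changed less. Mgst1, a membrane-bound enzyme abundant in liver, had ratios of -0.09, 0.14, -0.01 and -0.10 in the mice and -0.92 on the swapped array at its brightest probe. The coefficient there was -0.47 ± 0.07 (adjusted p = 0.00334), and without the swapped array it was -0.01 (adjusted p = 0.867). Its other probe was lower on all arrays, between -0.47 and -0.33 in the mice and at -0.46 in the swapped pool, with a coefficient of -0.44. Gsto1, an omega-class enzyme that reduces dehydroascorbate, was between 0.07 and 0.24 in the mice and at 0.56 in the swapped pool; it rose by 0.35 ± 0.06 (adjusted p = 0.00651) but not without the swapped array (0.14, adjusted p = 0.0808). Gstt3 of the theta class was between -1.12 and -0.25 in the mice and at -0.16 in the swapped pool and was not called (-0.40 ± 0.15, adjusted p = 0.0865). It was called lower without mouse 3 (-0.47, adjusted p = 0.0464) and without the swapped array (-0.65, adjusted p = 0.00947).

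The remaining GST genes were not called. Gstk1, a mitochondrial and peroxisomal enzyme, was at -0.14 ± 0.05 (adjusted p = 0.0923) and was called lower without the swapped array (-0.20, adjusted p = 0.0183). Gstz1, which isomerises maleylacetoacetate in tyrosine breakdown, was at -0.08 ± 0.06 (adjusted p = 0.361), and Mgst2, which can make leukotriene C4, was at 0.34 ± 0.11 (adjusted p = 0.0611). Mgst2 was called higher without mouse 2 (0.28, adjusted p = 0.0427) and without mouse 3 (0.39, adjusted p = 0.04). Gsto2 was called higher only without the swapped array (0.22, adjusted p = 0.0364). Gstt1 was at -0.10, Gstt2 at 0.00 and Mgst3 at -0.06.

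**Figure D3:**
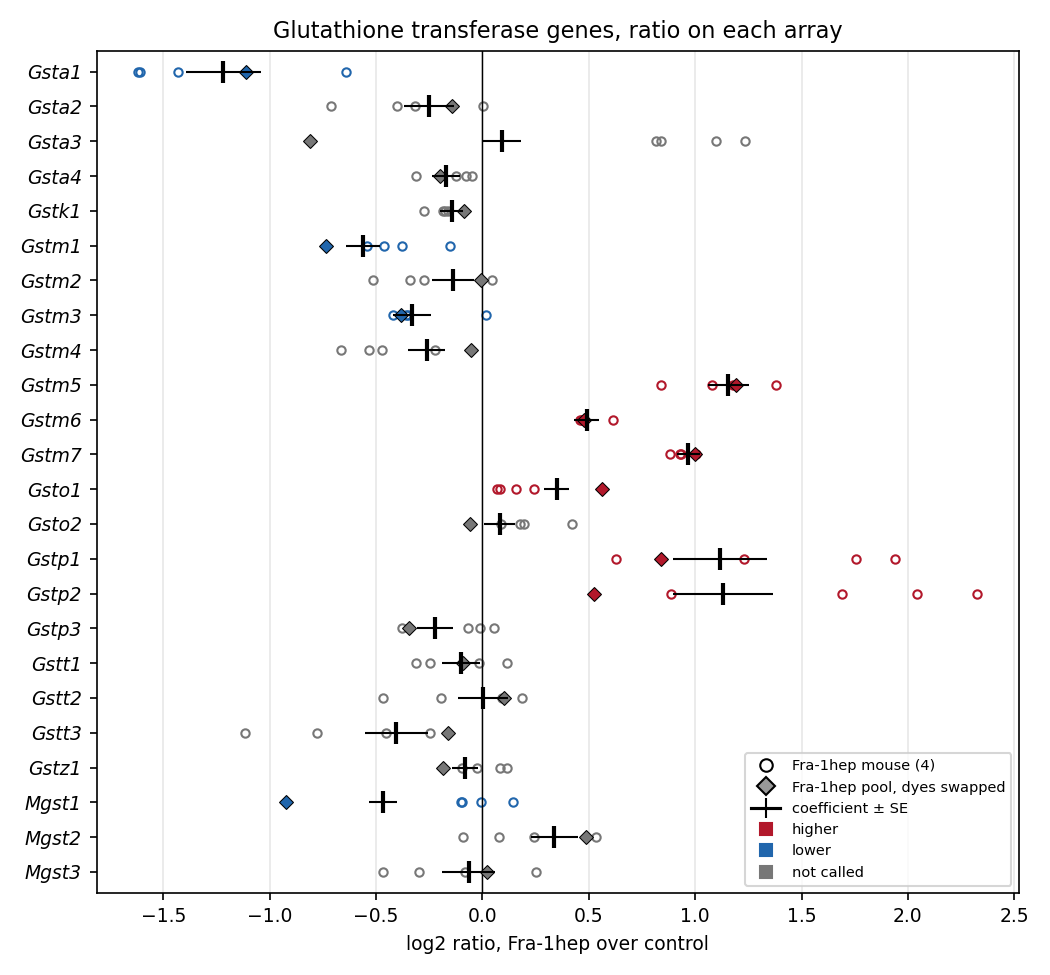
Log2 ratio of Fra-1hep over control (horizontal axis) for the 24 tested glutathione transferase genes, grouped by subfamily; open circles are the 4 mice, diamonds the swapped pool, and the black mark with its bar the coefficient ± SE, coloured by call. Gstm5, Gstm6, Gstm7, Gstp1 and Gstp2 lie above 0 on all arrays and Gsta1 and Gstm1 below it, and the Gsta3 diamond lies at -0.81 opposite to its circles.

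The tested UDP-glucuronosyltransferases were mostly lower. The Ugt1a isoforms come from 1 locus, in which separate leading exons are joined to shared exons that follow, so a probe on the shared part would read all of them. Ugt1a10 had the largest fall of all tested transferases, with ratios of -1.98, -1.78, -1.58 and -1.65 in the mice and -1.65 on the swapped array. It fell by 1.70 ± 0.08 on the log2 scale (adjusted p = 4.87e-05), a 3.25-fold lower level in Fra-1hep livers, and its probe was well above background on all arrays in both channels. The probe was dim, and with the scanner software's processed signals the coefficient was -2.69 (adjusted p = 0.000939). Its other probe was not above background for Fra-1hep on any array and was not tested.

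Probes for Ugt1a6a, whose enzyme glucuronidates phenols, were called in opposite directions. Its brightest probe had ratios of -0.18, -0.03, 0.02 and -0.28 in the mice and -0.46 on the swapped array, with a coefficient of -0.29 ± 0.07 (adjusted p = 0.025). Another of its probes was called at -0.23, and the remaining probe was called in the other direction, at 0.20. Without the swapped array the value at the brightest probe was -0.12 (adjusted p = 0.194). Of 15 transferase genes with over 1 kept probe, 13 had the same call at all kept probes and 1, Ugt1a6a, had probes called both ways.

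**Figure D4:**
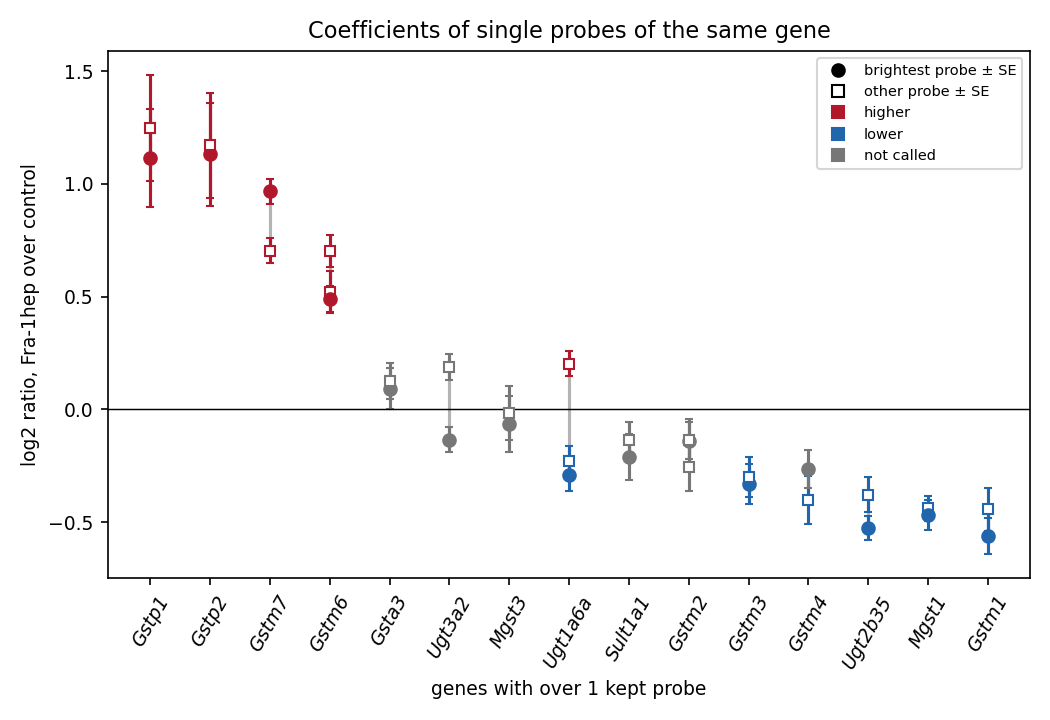
Coefficient ± SE, log2 of Fra-1hep over control (vertical axis), of each kept probe of the 15 genes with over 1 kept probe; filled circles are the brightest probe, which stands for the gene, and open squares the others, coloured by call. The range between probes had a median of 0.12 and was widest for Ugt1a6a, at 0.49.

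The Ugt2b enzymes glucuronidate steroids, bile acids and many drugs, and 6 of the 7 Ugt2b genes were lower. Ugt2b5 had ratios of -1.06, -1.0, -1.26 and -0.97 in the mice and -0.27 on the swapped array, and fell by 0.67 ± 0.07 on the log2 scale (adjusted p = 0.00107). Ugt2b37 had ratios of -1.0, -0.77, -1.11 and -0.76 in the mice and -0.36 on the swapped array, and fell by 0.63 ± 0.08 (adjusted p = 0.00241). Ugt2b35 had ratios of -0.76, -0.76, -0.86 and -0.83 in the mice and -0.25 on the swapped array, and fell by 0.53 ± 0.05 (adjusted p = 0.000997). All 3 were below 0 on every array, and in all 3 the swapped pool showed the smallest change. Without the swapped array, Ugt2b5 was at -1.07 (adjusted p = 5.67e-05) and Ugt2b35 at -0.80 (adjusted p = 6.27e-05).

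Ugt2b38 went the other way between the orientations, with ratios of -0.50, -0.44, -0.53 and -0.38 in the mice and -0.72 on the swapped array. It fell by 0.59 ± 0.06 on the log2 scale (adjusted p = 0.000717). Ugt2b36 was between -0.42 and -0.28 in the mice and at -0.16 in the swapped pool, with a coefficient of -0.27 ± 0.06 (adjusted p = 0.0143) that was not called with the spread of the control pool added (0.0522). Ugt2b34 had ratios of 0.12, -0.18, -0.14 and -0.01 in the mice and -0.58 on the swapped array; its coefficient was -0.32 ± 0.07 (adjusted p = 0.0177), and without the swapped array it was -0.05 (adjusted p = 0.543). Ugt2b1 was at -0.02 ± 0.08 and was not called (adjusted p = 0.884). The Ugt2b genes are close paralogs, and single values may mix neighbours.

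Ugt2a3, which lies among the Ugt2b genes, was the 1 UGT gene that was higher. Its human counterpart glucuronidates bile acids. It had ratios of 0.16, 0.52, 0.45 and 0.64 in the mice and 0.69 on the swapped array, all above 0, and rose by 0.57 ± 0.09 (adjusted p = 0.00541). In chromosome order the tested genes were Ugt2b34, Ugt2b1, Ugt2b35, Ugt2b36, Ugt2b5, Ugt2b37, Ugt2a3 and Ugt2b38, followed by Sult1b1, Sult1d1 and Sult1e1. Ugt2a3 thus rose between Ugt2b37 and Ugt2b38, both of which fell. Of the Ugt3a genes, whose human enzymes use other sugar donors than UDP-glucuronate, Ugt3a1 was between -0.64 and -0.34 in the mice and at -0.24 in the swapped pool, and fell by 0.36 ± 0.07 on the log2 scale (adjusted p = 0.00972). Ugt3a2 was at -0.13 ± 0.06 and was not called (adjusted p = 0.12), although it was called lower without the swapped array (-0.17, adjusted p = 0.0351).

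Promoters are shown for 3 of the Ugt2b genes called lower, and 2 of them hold a match to TGANTCA in this window. Its middle base is C in Ugt2b37 and A in Ugt2b38. They are the 250 bases before the start site from RefSeq (GRCm38.p6), 5′ to 3′ on the minus strand: chr5:87254789-87255038 for Ugt2b37, chr5:87424204-87424453 for Ugt2b38 and chr5:87140341-87140590 for Ugt2b5. Capitals again mark a match to TGANTCA.
Ugt2b37: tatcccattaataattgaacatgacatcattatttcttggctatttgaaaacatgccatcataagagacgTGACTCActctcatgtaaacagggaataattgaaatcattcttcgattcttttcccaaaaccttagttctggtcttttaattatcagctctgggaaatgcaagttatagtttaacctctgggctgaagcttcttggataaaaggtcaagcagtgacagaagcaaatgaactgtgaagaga
Ugt2b38: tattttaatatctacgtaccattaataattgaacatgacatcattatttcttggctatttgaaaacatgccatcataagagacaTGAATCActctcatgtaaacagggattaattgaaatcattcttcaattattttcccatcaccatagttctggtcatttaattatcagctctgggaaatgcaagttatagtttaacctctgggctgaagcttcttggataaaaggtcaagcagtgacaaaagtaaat
Ugt2b5: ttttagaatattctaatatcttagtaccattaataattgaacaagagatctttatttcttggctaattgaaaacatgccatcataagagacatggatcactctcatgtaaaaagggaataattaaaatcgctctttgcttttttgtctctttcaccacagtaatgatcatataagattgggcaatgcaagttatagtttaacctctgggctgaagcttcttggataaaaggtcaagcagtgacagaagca

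The match begins 180 bases before the start site in Ugt2b37 and 166 bases before it in Ugt2b38. Ugt2b5 had 0 matches in this window. Whether the match bears on the levels of these genes was not tested. The aligned promoters of Ugt2b37 and Ugt2b38 were 85.2% identical, those of Ugt2b38 and Ugt2b5 81.5% and those of Ugt2b37 and Ugt2b5 73%. Among the other UGT genes, TGANTCA was found in the windows of Ugt1a6a, Ugt2b1 and Ugt2b35, each time with A or T as its middle base.

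Of the 18 SULT genes, 8 were tested. Sult5a1 had ratios of -1.07, -0.94, -0.79 and -0.82 in the mice and -1.0 on the swapped array, and fell by 0.95 ± 0.07 on the log2 scale (adjusted p = 0.000236). Sult1e1, the estrogen sulfotransferase, had ratios of -0.56, -0.69, -0.64 and -0.44 in the mice and -0.86 on the swapped array, with a coefficient of -0.72 ± 0.06 (adjusted p = 0.000557). Its probe was well above background for Fra-1hep on only 2 of the 5 arrays and was tested through the control signal, so the size of its difference is poorly measured. Both were below 0 on every array, and both probes were dim. With the processed signals Sult5a1 was at -1.77 (adjusted p = 0.007) and Sult1e1 at -2.84 (adjusted p = 0.0206), so both sizes depended on the background correction. The direction of Sult5a1 did not. For Sult1e1 the filter favoured a lower value in Fra-1hep livers, so the processed signals are no check on its direction.

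Sult1d1, whose mouse enzyme sulfates catecholamines, had ratios of -0.91, -0.47, -0.30 and -0.25 in the mice and -0.78 on the swapped array. It fell by 0.63 ± 0.12 on the log2 scale (adjusted p = 0.0107). Sult2a8, whose enzyme sulfates bile acids in mouse liver, had ratios of -0.43, -0.45, -0.98 and -0.37 in the mice and -0.45 on the swapped array, and fell by 0.51 ± 0.12 (adjusted p = 0.0198). Mouse 3 had the lowest Sult2a8 ratio, and the other 4 arrays lay close together. The call of Sult2a8 was lost with the spread of the control pool added (adjusted p = 0.0679).

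Sult1b1, which sulfates thyroid hormones, and Sult4a1, an orphan member known mainly from brain, were the 2 SULT genes called higher. Sult1b1 was between 0.14 and 0.48 in the mice and at 0.35 in the swapped pool, and rose by 0.32 ± 0.07 (adjusted p = 0.018), but it was not called with the spread of the control pool added (0.063). Sult4a1 was between 0.05 and 0.25 in the mice and at 0.54 in the swapped pool, with a coefficient of 0.35 ± 0.06 (adjusted p = 0.0073). Its probe was well above background for control on only 2 of the 5 arrays and was tested through the Fra-1hep signal, so the size of its difference is poorly measured. Without the swapped array Sult4a1 was at 0.17 (adjusted p = 0.0495), and with the processed signals it was at 1.15 (adjusted p = 0.00264). Sult1a1, the main phenol sulfotransferase of liver, was at -0.21 ± 0.10 and was not called (adjusted p = 0.172), but it was called lower without the swapped array (-0.44, adjusted p = 0.0101). Sult1c2 was at 0.08 ± 0.05 and was not called (adjusted p = 0.33).

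**Figure D5:**
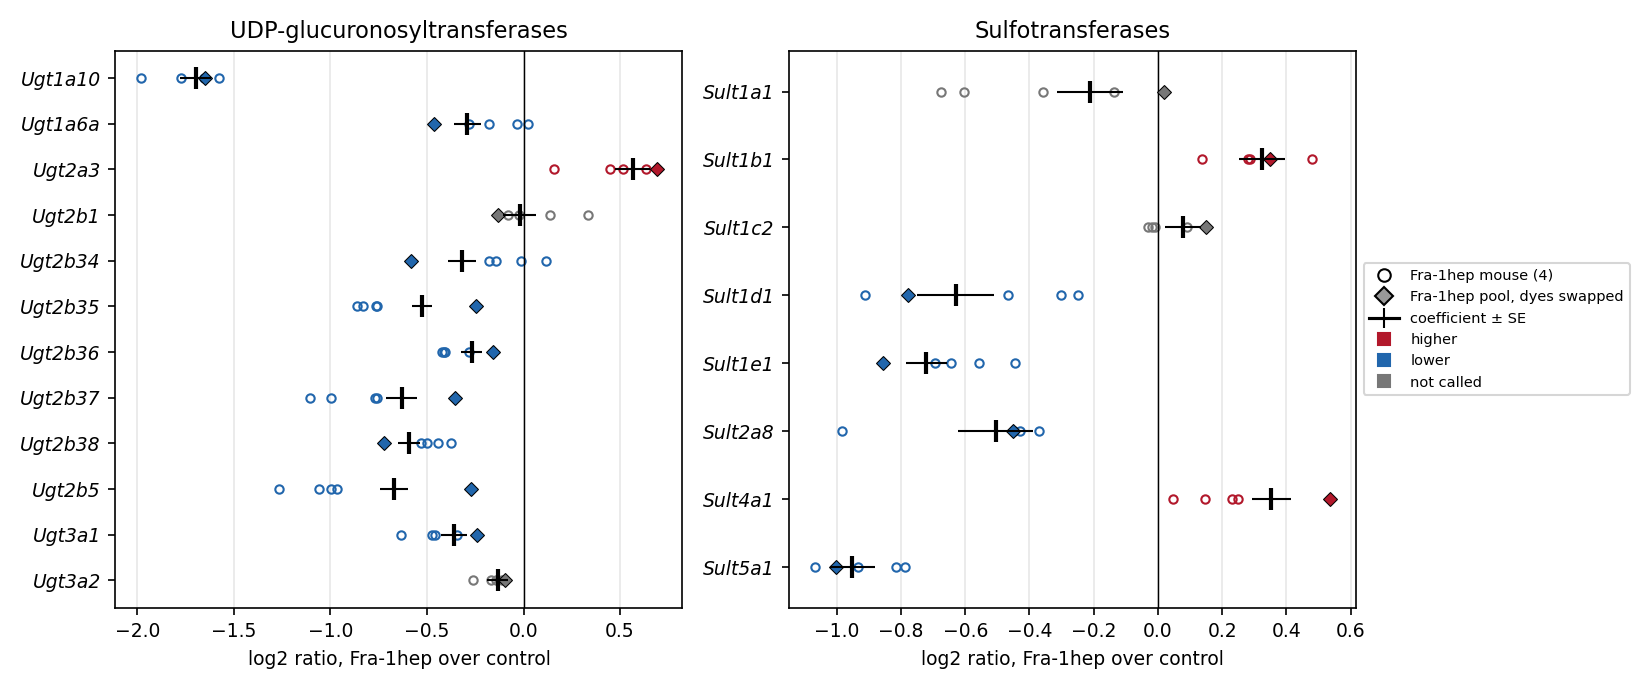
Log2 ratio of Fra-1hep over control (horizontal axis) for the 12 tested UGT genes (left) and the 8 tested SULT genes (right); open circles are the 4 mice, diamonds the swapped pool, and the black mark with its bar the coefficient ± SE, coloured by call. Ugt1a10 lies between -1.98 and -1.58 on every array, Ugt2a3 is the only called UGT gene above 0, and Sult1b1 and Sult4a1 are the called SULT genes above 0.

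The mice differed from each other more in the transferases than in the array as a whole. The SD over the 4 mice had a median of 0.17 among the 44 tested genes and of 0.12 over all features, and it reached 0.62 for Gstp2. All features were not matched to the transferases for signal level, which may affect this comparison. Mouse 3 was highest and mouse 4 lowest for 9 of the 44 genes (20.5%, against 6.29% of all features): Gstm2, Gstm3, Gstm4, Gstm6, Gstt1, Gstt3, Mgst3, Sult1a1 and Ugt1a6a. The opposite order was seen for 7 genes (15.9%, against 7.07% of all features): Gstp1, Gstp2, Sult2a8, Ugt2b5, Ugt2b37, Ugt2b38 and Ugt3a2. By class, 7 of 24 GST genes had mouse 3 highest and mouse 4 lowest, and 4 of 12 UGT genes had the opposite order. These orders were noticed in the data and were not tested.

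Genes that supply the conjugating reactions were read from lists of pathway genes. Of 13 tested genes of glutathione supply and use, 0 were called higher by limma and 4 lower, with a median of -0.17; at an unadjusted p under 0.05, 2 were higher and 6 lower. The called share, 30.8%, was close to the 30.5% of all named genes. Gclc, the catalytic subunit of the rate-limiting enzyme of glutathione synthesis, had ratios of -1.21, -0.51, -0.78 and -0.75 in the mice and -0.77 on the swapped array and fell by 0.79 ± 0.12 on the log2 scale (adjusted p = 0.00421). Gsr, glutathione reductase, fell by 0.39 ± 0.06 (adjusted p = 0.00458), and Cth, which makes cysteine from cystathionine, fell by 0.36 ± 0.06 (adjusted p = 0.00718). Gpx1, glutathione peroxidase, was the remaining called gene, at -0.49 ± 0.09 (adjusted p = 0.00814), but its fall lay mainly in the swapped pool (-0.91, against -0.33 to 0.15 in the mice), and without that array it was at -0.08 (adjusted p = 0.468).

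Of 7 genes of UDP-glucuronate supply and UDP-glucose use, 2 were called lower by limma and 0 higher, with a median of -0.04. The counts were the same at an unadjusted p under 0.05. The called share, 28.6%, was near the 30.5% of all named genes. Ugp2, which makes UDP-glucose, fell by 0.39 ± 0.06 on the log2 scale (adjusted p = 0.00366). Ugcg, which spends UDP-glucose on glucosylceramide, had ratios of -0.31, 0.00, -0.04 and -0.37 in the mice and -0.49 on the swapped array, with a coefficient of -0.33 ± 0.09 (adjusted p = 0.0289). Its call was lost in 6 alternatives, among them that without the swapped array (-0.18, adjusted p = 0.111) and that without mouse 4 (adjusted p = 0.0504). Ugdh, which makes UDP-glucuronate itself, was at 0.07 ± 0.06 and was not called (adjusted p = 0.401). Of 9 genes of PAPS supply and sulfur handling, 3 were higher and 4 lower (77.8% called), with a median of -0.15; 3 of these 7 calls (Slc26a1, Bpnt2 and Suox) were lost in at least 1 alternative, and Bpnt2 was at -0.31 and, without the swapped array, at -0.04 (adjusted p = 0.545). Papss2, the main PAPS synthase of liver, had ratios of 0.73, 0.71, 0.86 and 0.53 in the mice and 0.86 on the swapped array and rose by 0.79 ± 0.07 (adjusted p = 0.000585). Sqor, which oxidises hydrogen sulfide, rose by 0.58 ± 0.07 (adjusted p = 0.00171). The sulfate transporter gene Slc26a1 was between 0.19 and 0.23 in the mice but at -0.99 in the swapped pool; its coefficient was -0.39 ± 0.05 (adjusted p = 0.0026), and without the swapped array it turned to 0.21 (adjusted p = 0.013).

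Of 11 genes listed for conjugate export, 2 were higher and 5 lower, with a median of -0.09. The called share was 63.6%, against 30.5% of all named genes. Of these 7 calls, 3 were lost in at least 1 alternative: both higher ones (Abcc6 and Abcb1b) and Abcc1. The 5 lower genes include Abcb4, which moves phospholipid and not conjugates. Abcc3, which moves glucuronides across the basolateral membrane into blood, had ratios of -0.92, -0.41, -0.82 and -1.18 in the mice and -1.09 on the swapped array and fell by 0.96 ± 0.13 on the log2 scale (adjusted p = 0.00275). Abcb4, the phospholipid floppase of the bile canaliculus, fell by 0.46 ± 0.08 (adjusted p = 0.00751), and Abcc5 fell by 0.35 ± 0.06 (adjusted p = 0.00688). Of 9 genes that cleave conjugates or process them further, 3 were higher and 1 lower (44.4% called, against the same 30.5%), with a median of -0.09. Acy1, which removes acetyl groups from acetylated amino acids, was at 0.44 ± 0.09, Ggt6, of the gamma-glutamyltransferase family, at 0.42 ± 0.07, and the arylsulfatase gene Arsa at -0.40 ± 0.06. Nat8, whose enzyme acetylates cysteine conjugates to mercapturates, was at 0.30 ± 0.08 (adjusted p = 0.0368), and its call was lost in 6 alternatives, among them those without mouse 3 (adjusted p = 0.0618) or mouse 4 (0.0614).

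Of 18 genes of transcription factors and their partners that are known to act on transferase genes, 0 were called higher by limma and 4 lower, with a median of -0.17; at an unadjusted p under 0.05, 0 were higher and 8 lower. The called share, 22.2%, was below the 30.5% of all named genes, and each of the 4 calls was lost in at least 1 alternative. Keap1, which holds Nrf2 in the cytoplasm, was between -0.14 and -0.07 in the mice and at -0.64 in the swapped pool, with a coefficient of -0.37 ± 0.05 (adjusted p = 0.00338). It was not called without the swapped array (-0.10, adjusted p = 0.134) or with that array turned and averaged with the mice (-0.21, adjusted p = 0.119). Nfe2l2, which encodes Nrf2, was between -0.65 and -0.52 in the mice and at 0.03 in the swapped pool, with a coefficient of -0.27 ± 0.05 (adjusted p = 0.0137) that was not called with the spread of the control pool added (0.0506). For both Keap1 and Nfe2l2 the ratios of the mice did not overlap that of the swapped pool, and this difference was not tested.

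Nr1i2, the pregnane X receptor gene, was between -0.61 and -0.18 in the mice and at -0.14 in the swapped pool, with a coefficient of -0.31 ± 0.09 (adjusted p = 0.0416). Its call was lost in 7 alternatives, among them those without mouse 1 (adjusted p = 0.0667), mouse 2 (0.0636) or mouse 3 (0.0796). Nfe2l1, which encodes a relative of Nrf2, was at -0.24 ± 0.07 (adjusted p = 0.0448). Its call too was lost in 7 alternatives, among them those without mouse 1 (adjusted p = 0.0669), mouse 3 (0.0915) or mouse 4 (0.087).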

How the data were processed

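The authors read spot intensities from the scans with Feature Extraction (10.7.3.1 per the file headers, 10.7 per the submitters' processing notes). Besides median intensities and local backgrounds, the deposited scanner files hold processed signals, the log10 of Cy5 over Cy3, and flags of 0 or 1, per the file headers. Values in the deposited series table were log2 ratios: over 23066 probes above background, its slope on the scanner ratios was 1 on the 4 mouse arrays and -1 on the swapped one, which puts Fra-1hep over control on every array. It had column medians of 0.133, 0.0842, 0.0444 and 0.131 (mice) and -0.042 (swapped), so it was not centred; the sources used here give no further step.

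Median intensities were corrected with normexp (offset 50) and normalized by loess within each array; 189 outlier spots were left out and 0 spots were saturated. Between 45.1% and 59.1% of 62976 spots per array were well above background in a channel. Across probes, which are not independent replicates, r was 0.742 to 0.84 between mice and 0.593 to 0.61 with the swapped pool. Probes were named by accession through the RefSeq table of GRCm38.p6, whose coordinates are printed for promoters alone, since the sources used here do not give the build of the array. Probes with a signal well above background on 3 or more arrays, in whichever channel, were kept (28105 probes), and the brightest stood for its gene. The genotype and dye terms were estimated per feature by limma (3.58.1 under R 4.3.3, lmFit and eBayes; 3 residual and 4.02 prior degrees of freedom); the median SE of the transferases was 0.0806, and precision is limited by how few arrays there were. The fit was tested on simulated data. Nothing says how the mice relate to each other. The p-values rest on the spread among these Fra-1hep mice, joined by limma with that of all features, and hold no spread among control mice. 

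The transferases and the gene lists were chosen with earlier results of these data known. Every transferase is accounted for; values were to be given for those called with a change of at least 0.5, the largest change in each subfamily, and up to 3 genes with the smallest p in each list, and other genes were named after their values were seen. Alternatives covered the dye term, single arrays, background correction, normalization, the filter, the probe rule, array weights, the deposited table and an allowance for the spread of the control pool.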

Additional observations from a re-analysis of the deposited data

Results flagged for a closer look

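In 4 of 47 sets of 4 mice examined, 1 mouse stood apart from the other 3 by Dixon's criterion for 4 samples; chance marks about 1 in 20. For Gstm3 it was mouse 3, at 0.018, while the others lay between -0.42 and -0.35. For Gstm6 it was also mouse 3, at 0.61, against 0.46 to 0.47 in the others. For Sult2a8 it was mouse 3 again, at -0.98, against -0.45 to -0.37. For Ugt2b36 it was mouse 2, at -0.28, against -0.42 to -0.41. Gstm3 and Gstm6 lie in the same gene cluster and may share reads of related sequence, so these flags are not independent.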

How the results depend on the processing

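Of the 26 called transferases, 17 (6 higher, 11 lower) kept their call in every one of 15 alternatives that tested them, and 9 lost it in at least 1. The 17 include Sult1e1 and Sult4a1, which had 14 alternatives each. They could not be tested where both channels had to be above background on all arrays, so that filter is no check on their calls. Of the uncalled genes, 9 gained a call in at least 1 alternative, and 0 transferases were called in the opposite direction. Adding an assumed spread of the 5 pooled control mice removed 7 calls and left 2846 of all features called, against 5717 as reported; without the swapped array the number of all features called was 7718. Lower GST genes numbered 7 without the swapped array and 7 when it was turned and averaged with the mice, against 4. The UGT median was -0.42 without the swapped array, against -0.34. The SULT median was -0.014 with no filter on dim probes, which adds SULT genes near background, against -0.36, and higher SULT genes numbered 1 where both channels had to be above background on all arrays and 1 with the control spread added, against 2. Leaving out each mouse in turn gave 6 to 7 higher and 3 to 6 lower GST genes (median -0.14 to -0.07), 1 to 1 higher and 9 to 9 lower UGT genes (median -0.35 to -0.32), and 2 to 2 higher and 4 to 4 lower SULT genes (median -0.38 to -0.35). Outside the transferases, Slc26a1 turned to 0.21 (adjusted p = 0.013) without the swapped array, and the endothelial marker Kdr, 0.07 as reported, turned to -0.34 (adjusted p = 0.0268) with the mean of all kept probes; the cause was not tested. Calls of Keap1, Ugcg, Gpx1, Bpnt2 and Tat were lost without the swapped array, as was that of the endothelial marker Cdh5. No paired analysis was possible because the Fra-1hep pool is 1 mixed sample whose mice the sources used here do not name, and the control is 1 pool. Dim probes (Sult1e1, Sult4a1, Sult5a1 and Ugt1a10) give sizes that depend on the background correction.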
